A study of Mus musculus with 9 samples.

Results

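The 9 liver libraries differed in how much of each was taken up by a few very abundant hepatocyte transcripts, and they are described here in 2 classes chosen from that measured share. Counts were scaled to CPM (counts per 1000000 counts of the library), the 10 genes with the highest mean over all libraries were taken, and their percentages were summed in each library. The 5 libraries above 18% are called richer and the 4 below 18% poorer, out of 9 in all. Apoe-/- replicates 1 to 4 and Mif-2-/- Apoe-/- replicate 2 were richer, and Apoe-/- replicate 5 and Mif-2-/- Apoe-/- replicates 1, 3 and 4 were poorer. Because the classes were selected on these measurements, every difference between them is a description and carries no p-value.

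The study compared livers of female Apoe-/- mice (5 libraries) with those of female Mif-2-/- Apoe-/- mice (4 libraries), all after 12 weeks of a cholesterol-rich high-fat diet. Both genotypes lack apolipoprotein E throughout the body, so no group had an intact Apoe gene, and Mif-2 (gene symbol Ddt) was likewise deleted globally. The frozen liver sections had been fixed in paraformaldehyde and were lysed with proteinase K. RNA was isolated from them on oligo-dT beads and amplified by Smart-seq2, a full-length cDNA method. Lysates of several sections were combined for each library. The labels number the samples as separate replicates without naming the animals, and the published description counts fewer mice per group than there are Apoe-/- libraries. Whether a pair of libraries shares a mouse, or which library the authors may have left out, is not given in the sources used here. All libraries were used, n counts libraries, and p-values measure only the spread between them.

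Hepatocytes devote a large part of their mRNA to secreted plasma proteins such as albumin and the apolipoproteins. In a bulk liver library these few transcripts compete for counts with all others, so a library with a larger share of them has fewer counts left for the remaining genes. In bulk tissue, fewer cells of a type and less RNA per cell cannot be told apart.

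The summed share was 20.5%, 20.9%, 23.7%, 23.6% and 14.7% in Apoe-/- replicates 1 to 5, and 12.5%, 26.3%, 13.3% and 17.0% in Mif-2-/- Apoe-/- replicates 1 to 4. Both the highest and the lowest library were thus Mif-2-/- Apoe-/-. Just above the threshold stood Apoe-/- replicate 1 at 20.5%, and just below it Mif-2-/- Apoe-/- replicate 4 at 17.0%. The same 5 libraries were the highest when 5, 20, 50 or 100 genes were summed. With 100 genes the richer libraries lay between 43.5% and 46.5% and the poorer between 30.9% and 36.3%.

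**Figure D1:**
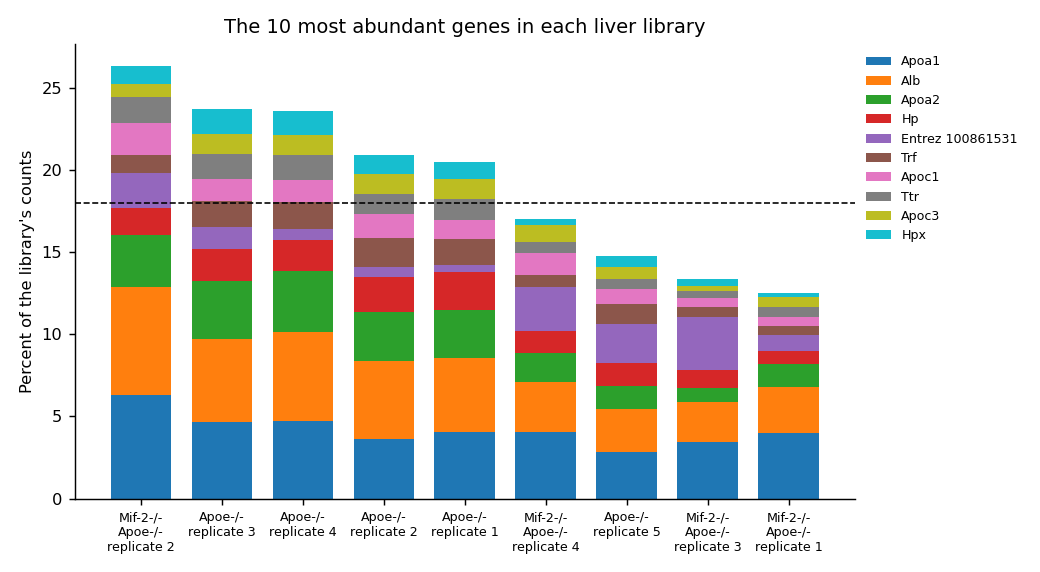
Percent of each library's counts (y axis) in each of the 10 most abundant genes (colours), with the 9 libraries ordered by the sum on the x axis and the 18% threshold as a dashed line. Mif-2-/- Apoe-/- replicate 2 reached 26.3% and Mif-2-/- Apoe-/- replicate 1 12.5%.

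The 10 genes were Apoa1, Apoa2, Apoc1 and Apoc3 (lipoprotein components), Alb (serum albumin), Trf and Ttr (carriers of iron and of thyroid hormone), Hp and Hpx (binders of free haemoglobin and haem), and Entrez 100861531, for which the reference tables used here give no symbol. Alb (mm10, chromosome 5, 90460870 to 90476602) took 4.50%, 4.78%, 5.07%, 5.43% and 2.63% of the counts in Apoe-/- replicates 1 to 5, and 2.80%, 6.62%, 2.44% and 3.06% in Mif-2-/- Apoe-/- replicates 1 to 4. All richer libraries were above all poorer ones for Alb, and this held for 5 of the 10 genes, the others being Apoa2, Hp, Ttr and Hpx.

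Apoa1 and Apoc3 lie next to each other on chromosome 9 (46228630 to 46230469 and 46233050 to 46235636). Apoa1 took 4.08%, 3.61%, 4.66%, 4.72% and 2.81% in Apoe-/- replicates 1 to 5, against 4.01%, 6.28%, 3.45% and 4.03% in Mif-2-/- Apoe-/- replicates 1 to 4. Within each genotype the richer libraries were higher for Apoa1, but the classes overlapped across genotypes. Apoc3 was 1.22% to 1.24% in the richer Apoe-/- libraries and 0.736% in replicate 5, while Mif-2-/- Apoe-/- replicate 2 (0.831%) was below replicate 4 (0.979%).

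Entrez 100861531 did not follow the other 9 genes. It took 0.396%, 0.633%, 1.35%, 0.640% and 2.34% in Apoe-/- replicates 1 to 5, against 0.983%, 2.12%, 3.19% and 2.71% in Mif-2-/- Apoe-/- replicates 1 to 4. Without it the gap widened, with richer libraries at 20.1% to 24.2% and poorer ones at 10.1% to 14.3%.

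Total counts per library ranged from 2318148 to 10764182, and the smallest and the largest library were both richer. Over the 9 libraries the share and the total had a Pearson r of 0.036 and a Spearman rho of -0.233, and r was -0.202 without the 2 libraries farthest from the median total, Apoe-/- replicates 1 and 2. As the share chose the classes, these are given as a description.

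To compare the number of genes at an equal total, each library was thinned to 2318148 counts. Between 12414 and 15612 genes then had at least 1 count in the richer libraries and between 15313 and 17902 in the poorer ones, and only Mif-2-/- Apoe-/- replicates 1 and 2 kept the ranges from separating. By genotype the means were 14560 ± 1866 (SD, n = 5) in Apoe-/- and 16270 ± 1157 (SD, n = 4) in livers of Mif-2-/- Apoe-/- mice. This difference of -1712 genes did not exceed the spread between libraries (exact two-sided permutation test, p = 0.159). Without Apoe-/- replicate 5 the difference was -2428 genes (exact permutation p = 0.0286). That removes the only poorer Apoe-/- library, so this comparison largely follows the classes. Its p is the lowest that the test can give with so few libraries. An equal total still leaves the richer libraries fewer counts outside the 10 genes. With those genes removed and the remaining counts thinned to 1707685 in each library, the ranges were 12329 to 15602 and 14972 to 17585 genes and the genotypes differed by -1596 (exact permutation p = 0.175), or by -2298 without Apoe-/- replicate 5 (exact permutation p = 0.0571), so the call made without that library did not hold at this depth.

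The number of genes far above the median of the other libraries also varied. At 10 CPM or more in one library and a median of at most 1 CPM in the other 8, there were 10, 14, 170, 46 and 499 such genes in Apoe-/- replicates 1 to 5, and 60, 236, 797 and 268 in Mif-2-/- Apoe-/- replicates 1 to 4. A gene counted in this way can also be high in a few of the other libraries, and can be counted there too. The 2 libraries with the most, Mif-2-/- Apoe-/- replicate 3 and Apoe-/- replicate 5, were both poorer. Long noncoding RNAs took 0.484% to 0.580% of the counts in the richer and 1.17% to 1.31% in the poorer libraries, without overlap.

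**Figure D2:**
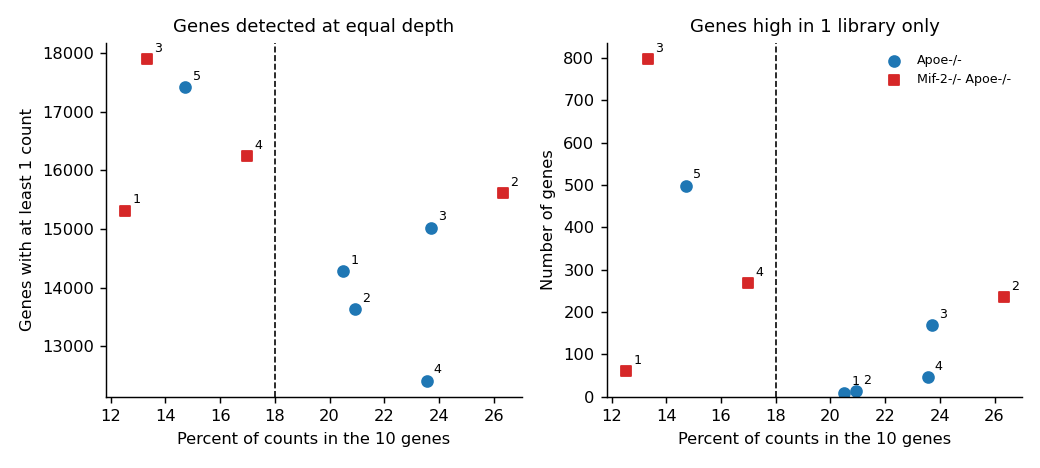
Genes with at least 1 count after thinning (left) against the percent of counts in the 10 genes. On the right are genes at 10 CPM or more in a library with a median of at most 1 CPM in the other 8. Such genes can be high in a few other libraries as well. Points are libraries numbered by replicate, circles are Apoe-/-, squares are Mif-2-/- Apoe-/-, and the dashed line is at 18%. Mif-2-/- Apoe-/- replicate 3 had the most genes in both panels, 17902 and 797.

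To describe the other genes without mixing class and genotype, the classes were compared inside each genotype. In Apoe-/- livers, replicates 1 to 4 were compared with replicate 5, and in Mif-2-/- Apoe-/- livers replicate 2 with replicates 1, 3 and 4. These 2 differences share no library, but each has a single library on one side. They are differences of mean log2(CPM + 0.5) after TMM normalization with the 10 genes left out, over the 8153 genes that averaged 10 CPM or more.

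Of the 8153 genes, 554 (6.8%) were at least 2-fold higher in the richer libraries of both genotypes with no overlap within either, and 410 (5.03%) were at least 2-fold lower. These 2 shares are the background for the counts of list members given below. The share counted as higher was larger among abundant genes and among genes with short transcripts. It reached 52.0% of genes at 200 CPM or more with transcripts under 1000 bases. For lists of abundant or short genes 6.8% is therefore a low background. Inside Apoe-/- livers alone 1516 genes met the criterion upward and 1349 downward, and inside Mif-2-/- Apoe-/- livers 1246 and 1478. The directions conflicted for 127 genes higher within Apoe-/- and lower within Mif-2-/- Apoe-/- livers, and for 103 genes the other way round. The balance depended on the scaling, since with total counts in place of TMM 276 genes were higher and 695 lower, and the median of all genes moved from 0.09 and -0.05 to -0.30 and -0.13. Of the 34 gene lists examined, 24 kept the sign of each median under all 5 scalings, and those described below that did not are named there.

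Across the 8153 genes, which are not independent replicates, the 2 differences had a Pearson r of 0.27 and a Spearman rho of 0.34, and 63.5% of genes had the same sign. Taking 1 library from each side gave r between 0.0532 and 0.322 over the 12 possible pairs. The correlation rose with abundance, from 0.14 over 2313 genes at 10 to 20 CPM to 0.83 over 319 genes at 500 CPM or more. In the most abundant bin 24.8% of genes were counted as higher and 1.57% as lower.

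**Figure D3:**
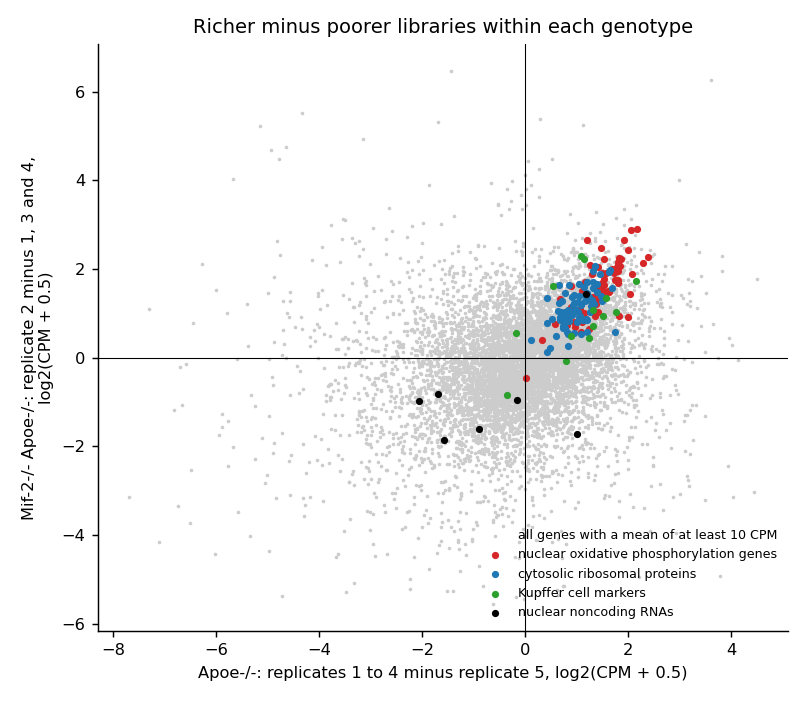
Richer minus poorer difference in log2(CPM + 0.5) within Apoe-/- (x axis) and within Mif-2-/- Apoe-/- livers (y axis), 1 point per gene, with 4 gene lists in colour. Nuclear oxidative phosphorylation genes centre on 1.41 and 1.5, and nuclear noncoding RNAs on -0.89 and -0.97.

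The genes with the largest differences in both genotypes included several of mitochondrial respiration. Cycs, which encodes the electron carrier cytochrome c, was at 160, 141, 169, 228 and 32.5 CPM in Apoe-/- replicates 1 to 5 and at 28.7, 130, 23.4 and 27.7 CPM in Mif-2-/- Apoe-/- replicates 1 to 4. Higd1a, a small mitochondrial inner-membrane protein, was at 187, 212, 262, 367 and 46.1 CPM and at 41.3, 165, 18.9 and 35.4 CPM in the same order. Ndufc2, a subunit of complex I, was at 94.0, 74.1, 170, 171 and 25.9 CPM and at 30.9, 117, 13.6 and 8.23 CPM. For all 3 genes the 5 richer libraries lay above the 4 poorer ones, also across genotypes.

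Chac1, a glutathione-degrading enzyme of the integrated stress response, was at 24.3, 14.9, 13.1, 13.1 and 1.55 CPM in the Apoe-/- and at 2.85, 35.2, 0.504 and 2.74 CPM in the Mif-2-/- Apoe-/- libraries. Its classes were separate as well. Scgb1a1, the club cell secretoglobin of the airway, had the largest difference but an uneven one, at 2.06, 2.28, 183, 77.8 and 0.968 CPM and at 1.02, 215, 1.76 and 5.94 CPM. It was high in only 3 of the 5 richer libraries.

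The other 5 of the 10 leading genes were Spryd4, Ube2a (a ubiquitin-conjugating enzyme), Tigd5, Pdcl3 and Dnah1 (an axonemal dynein), with differences from 2.25 to 3.83 within Apoe-/- and from 2.28 to 2.57 within Mif-2-/- Apoe-/- livers. Dnah1 was uneven like Scgb1a1, with 0.412, 4.83, 26.3, 0.403 and 0.194 CPM in the Apoe-/- libraries. In the Mif-2-/- Apoe-/- libraries it was at 0.203, 30.7, 27.5 and 8.92 CPM, so the poorer replicate 3 was close to the richer replicate 2. Tigd5 was uneven too, at 9.05, 34.1, 83.1, 3.43 and 0.774 CPM and at 0.407, 17.0, 12.3 and 3.43 CPM in the same order.

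The 10 leading genes in the other direction were Myo15b, Ccdc116, Ttc21a, Zswim3, Otof, Adat1, Lctl, Casr, Zfp251 and Btn1a1. In Mif-2-/- Apoe-/- replicate 2, the only richer library of its genotype, all 10 lay between 0 and 1.14 CPM. Several were scarcely counted in the other richer libraries too. Zswim3 was at 0.412, 0.402, 1.88, 0.403 and 159 CPM in the Apoe-/- and at 5.29, 0, 3.28 and 32.0 CPM in the Mif-2-/- Apoe-/- libraries. Casr, the calcium-sensing receptor, was at 1.65, 0, 3.76, 0.202 and 25.6 CPM and at 1.02, 0, 85.2 and 1.14 CPM. In both cases 2 poorer libraries carried most of the level and the other 2 were close to the richer ones. Among the 410 genes counted as lower, 68 had 3 counts or fewer in Mif-2-/- Apoe-/- replicate 2, the smallest library. More than 3 counts in every library were found for 293 of the 410.

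Genes of aerobic energy production had the largest median difference of the 34 lists within Apoe-/- livers. The nuclear genes of oxidative phosphorylation encode the respiratory complexes and ATP synthase outside the mitochondrial genome. Their median differences were 1.41 within Apoe-/- and 1.5 within Mif-2-/- Apoe-/- livers, beside 0.09 and -0.05 over all 8153 genes, and 50 of the 72 at 10 CPM or more were counted as higher and 0 as lower. The sign was positive in both genotypes for 71 of 72, the exception being Ndufs1, named after its values were seen.

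Uqcrq, a subunit of complex III, was at 3540, 3460, 3140, 4200 and 1430 CPM in the Apoe-/- and at 1060, 2650, 674 and 1660 CPM in the Mif-2-/- Apoe-/- libraries. Cox4i1 (complex IV) was at 2840, 3020, 4130, 4670 and 1080 CPM and at 651, 2780, 723 and 1170 CPM. Ndufb7 (complex I) was at 1640, 1730, 1540, 1720 and 794 CPM and at 725, 1520, 514 and 960 CPM. In each the richer library of the Mif-2-/- Apoe-/- mice stood with the richer Apoe-/- libraries rather than with its own genotype.

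The mitochondrially encoded subunits of the same complexes did not go the same way. Of 13 listed, 6 reached 10 CPM, with medians of -0.83 and -0.20, and 1 of the 6, COX1, was counted as lower. COX1 was at 151, 197, 270, 249 and 582 CPM in the Apoe-/- and at 583, 180, 408 and 323 CPM in the Mif-2-/- Apoe-/- libraries. ND4 and CYTB had differences of -0.72 and -0.95 within Apoe-/- and of -0.07 and -0.34 within Mif-2-/- Apoe-/- livers.

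Cytosolic ribosomal protein genes, which build the translation machinery, had medians of 1.01 and 1.09. All 78 at 10 CPM or more were positive in both genotypes and 28 were counted as higher. Their summed level was 32400 to 43900 CPM in the richer and 11900 to 24800 CPM in the poorer libraries. Rpsa, Rpl19 and Rps15, the most abundant, had differences of 0.77, 1.13 and 0.77 within Apoe-/- and 1.02, 0.85 and 0.68 within Mif-2-/- Apoe-/- livers. Proteasome subunits had medians of 0.88 and 0.90, with 10 of 29 counted as higher. Among them Psmb6 differed by 1.45 and 1.20, Psmd4 by 0.88 and 0.79, and Psmc3 by 0.79 and 0.43.

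The hepatocyte label of the classes was checked against lists that leave out the 10 genes. Other secreted hepatocyte proteins had medians of 1.09 and 0.90, and 12 of 32 were counted as higher. Apoc4 was at 10200, 11000, 10800, 13900 and 4010 CPM in the Apoe-/- and at 3490, 11200, 2270 and 6260 CPM in the Mif-2-/- Apoe-/- libraries. Complement C3 differed by 0.66 and 0.69, and the protease inhibitor Serpina1b by 1.35 and 1.13.

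Acute phase genes had medians of 0.95 and 0.71 and 5 of 18 were counted as higher, with Lrg1 at 1.31 and 0.99, Itih4 at 0.62 and 1.15 and Hamp, the iron hormone hepcidin, at 0.95 and 0.78. Cytochrome P450 genes of drug and bile acid metabolism had medians of 0.93 and 0.65, with 7 of 32 higher and 1 lower. Cyp2d26, Cyp2d10 and Cyp2e1 had differences of 1.01, 1.31 and 1.24 within Apoe-/- and of 0.15, 0.95 and 0.92 within Mif-2-/- Apoe-/- livers.

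Hepatocyte transcription factors did not follow. Their medians were 0.26 and -0.17, signs that changed with the scaling, and 0 of 18 were counted in either direction. Over all genes 6.8% were counted as higher and 5.03% as lower, so a count of 0 says little about so short a list. Creb3l3, Nr1i3 (the nuclear receptor CAR) and Atf5 differed by 0.11, -0.84 and 0.16 within Apoe-/- and by -0.70, -2.05 and 0.20 within Mif-2-/- Apoe-/- livers. Urea cycle and amino acid catabolic genes had medians of 0.64 and -0.10, the second also changing sign with the scaling, with 1 of 23 higher. Hpd, Mat1a and Fah differed by 0.37, 0.98 and 0.50 and by -0.19, 0.31 and -0.10. The classes are therefore named by the share of the 10 genes and not by hepatocyte content.

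Kupffer cells are the resident macrophages of the liver. Their markers had medians of 1.19 and 0.99, with 6 of 14 counted as higher and 0 as lower (C1qa, C1qb, Lyz2, Fcna, Marco and Folr2, named after their values were seen). The summed level of the 17 markers was 2620 to 3700 CPM in the richer and 1580 to 2050 CPM in the poorer libraries, and 1 marker, Cd163, was at 0 in at least 1 library. Clec4f, the marker most specific to these cells, differed by 0.80 and -0.08, Cd5l by 1.25 and 0.45, and C1qa by 1.58 and 1.35. Csf1r, the receptor for macrophage colony-stimulating factor, also named after its values were seen, differed by -0.36 and -0.85.

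Sinusoidal endothelial markers had medians of -0.13 (about 0 with TMMwsp scaling) and -0.64, with 0 of 13 counted, and their summed level overlapped between the classes (671 to 1710 and 1250 to 1650 CPM). Stab1, Eng and Egfl7 differed by -0.34, 1.64 and -0.13 and by -2.85, -0.64 and 0.01. Stellate cell and fibroblast markers had medians of 0.74 and 0.11 with 0 of 14 counted, Ecm1, Col1a1 and Dcn differing by 1.25, 0.84 and 0.56 and by -0.09, 0.99 and 1.28. For both lists a count of 0 is near the shares over all genes, 6.8% higher and 5.03% lower. The part of any cell type in the class difference was not tested.

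Nuclear noncoding RNAs had medians of -0.89 and -0.97 over 7 genes, of which 1 was counted as lower and 1 as higher. Malat1, a nuclear-retained RNA of splicing speckles, was at 434, 378, 254, 304 and 1000 CPM in the Apoe-/- and at 1390, 253, 778 and 697 CPM in the Mif-2-/- Apoe-/- libraries, and all poorer libraries exceeded all richer ones. Neat1, the scaffold of paraspeckles, was at 382, 447, 687, 464 and 894 CPM and at 1280, 260, 552 and 710 CPM, with overlap across genotypes. The third most abundant, Xist, differed by -0.15 and -0.96. Norad, a largely cytoplasmic RNA on the same list, was the member counted as higher, at 1.18 and 1.44, and Malat1 the member counted as lower.

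Histone and chromatin regulators had medians of -0.83 and -0.34, with 1 of 26, Ash1l, counted as lower, beside 5.03% of all genes. Their summed level was 1530 to 1930 CPM in the richer and 2140 to 2860 CPM in the poorer libraries. Smarca4, Chd4 and Med12 differed by -0.01, -0.59 and -0.65 and by -0.57, -0.38 and -0.31. Splicing and speckle genes had medians of -0.32 and -0.42 with 0 of 33 counted, and Ddx17, Son and Rbm5 differed by -0.06, -1.04 and -0.26 and by -0.65, 0.10 and -0.77.

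Transcript length was compared as well, taken as the median over a gene's GENCODE M21 transcripts, untranslated regions included. The compared genes were counted from the libraries that chose the classes, so a trend with length is not independent of that choice. The 554 genes counted as higher had a median length of 1157 bases, the 410 counted as lower 3528 bases, and all 8153 genes 2518 bases, with a length known for 97.5%, 95.9% and 97.7%. GC content differed little, at medians of 51.0%, 52.3% and 52.7%.

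Over 771 genes under 1000 bases the median differences were 0.97 and 0.88, and 29.8% were counted as higher and 0.778% as lower. Over 641 genes of 6000 bases or more they were -0.81 and -0.42, and 1.40% were counted as higher and 10.9% as lower. The fall with length was seen at each level of abundance. Among genes at 200 CPM or more, the medians went from 1.19 and 1.15 under 1000 bases to -0.07 and -0.36 at 4000 to 6000 bases, and among genes at 10 to 50 CPM from 0.72 and 0.61 to -0.50 and -0.23 over the same bins. Length and gene function overlap in these lists, since ribosomal and respiratory subunits are short, and their parts were not separated.

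**Figure D4:**
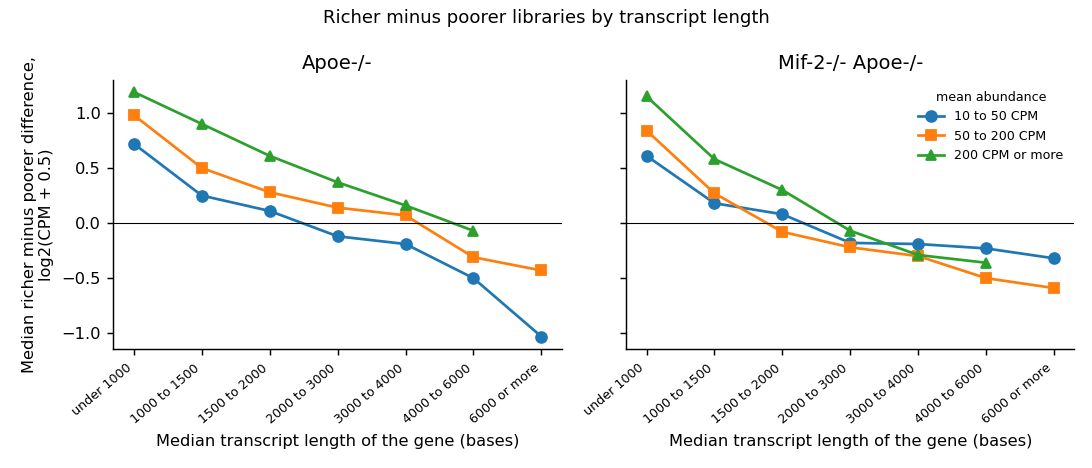
Median richer minus poorer difference in log2(CPM + 0.5) on the y axis by transcript length in bases on the x axis, within Apoe-/- (left) and Mif-2-/- Apoe-/- livers (right), with a line for each level of mean abundance. Under 1000 bases the medians lie between 0.61 and 1.19, and at 4000 to 6000 bases between -0.50 and -0.07.

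The classes were unevenly spread over the genotypes, with 4 of 5 Apoe-/- libraries richer and 3 of 4 Mif-2-/- Apoe-/- libraries poorer. Class and genotype are therefore confounded, and their parts in the comparison of genotypes cannot be told apart. Over 16860 genes, edgeR's quasi-likelihood test with Benjamini-Hochberg adjustment called 22 genes (0.13%), 10 higher and 12 lower in Apoe-/- livers, and 2615 had an unadjusted p under 0.05. The 10 and 12 calls became 15 and 12 with RLE size factors and 18 and 12 with TMMwsp, which moved the median fold change of all tested genes from -0.17 to 0.00. Single libraries weighed heavily, with 119 calls without Apoe-/- replicate 5, 228 without Mif-2-/- Apoe-/- replicate 2, 13 without Mif-2-/- Apoe-/- replicate 3, and 11, 14, 9 and 11 without Apoe-/- replicates 1 to 4. With the share of the 10 genes as a covariate 35 genes were called, 19 of them among the 22. With the class of the library as a term 14 were called, 11 of them among the 22. Within the richer libraries alone 31 were called, 10 of them among the 22, and within the poorer alone 0, with 802 at an unadjusted p under 0.05.

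Ddt, which encodes MIF-2, was at 590, 644, 852, 972 and 233 CPM in the Apoe-/- and at 5.49, 3.41, 5.29 and 2.51 CPM in the Mif-2-/- Apoe-/- libraries. The level in the poorer Apoe-/- replicate 5 was the lowest of its group and still far above the deleted group. The log2 fold change was 7.27 (SE 0.54, edgeR adjusted p = 2.2e-05). It was 5.70 in the poorer and 7.80 in the richer libraries alone.

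For all 22 called genes the genotypes did not overlap, which fixes their direction within either class. None was among the 554 genes counted as higher and 1, Cyp2b13, was among the 410 counted as lower. With 6.8% and 5.03% of all genes at 10 CPM or more in these sets, such small numbers are near the background. Cyp2b13 was at 0.137, 0.938, 2.35, 0.403 and 3.87 CPM in the Apoe-/- and at 673, 189, 246 and 501 CPM in the Mif-2-/- Apoe-/- libraries. Of the 22, A1bg, Psmd13 and Itprid2 were not called with the covariate (edgeR adjusted p = 0.058, 0.0619 and 0.139). The log2 fold change of Itprid2 was -5.73 in the poorer and -1.35 in the richer libraries.

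The genotype medians of the lists, which were not tested, depended on whether the classes were mixed. Whether a median that is smaller within the classes reflects class or genotype cannot be told apart here. For nuclear oxidative phosphorylation genes the median log2 fold change was 1.12 for Apoe-/- over Mif-2-/- Apoe-/- livers, 0.73 with the covariate, 0.34 in the poorer and 0.41 in the richer libraries. Over all 8153 genes the medians of the same 4 fits were -0.03, 0.06, -0.15 and 0.24. For Kupffer cell markers they were 0.79, 0.49, 0.04 and 0.25, and for nuclear noncoding RNAs -0.69, -0.10, 0.06 and 0.13. By edgeR 0 of the 72, 14 and 7 genes of these lists were called, while 45, 4 and 1 had an unadjusted p under 0.05, beside 18.7% of all genes at 10 CPM or more, and DESeq2 called 12, 1 and 0, beside 6.32% of those with an adjusted p.

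Circadian clock genes set the daily rhythm of transcription. Between the richer and the poorer libraries their medians were -0.29 within Apoe-/- and 0.08 within Mif-2-/- Apoe-/- livers, the second changing sign with the scaling, and 0 of 15 were counted. Between the genotypes their median was -0.79 over all libraries, -0.85 with the covariate, -1.24 in the poorer and -1.26 in the richer libraries. By edgeR 3 of 15 were called, all lower in Apoe-/- livers, beside 0.13% of all tested genes. An unadjusted edgeR p under 0.05 was found for 8, beside 18.7% of all genes at 10 CPM or more. DESeq2 called 7, beside 6.32% of those with an adjusted p. Dbp, a clock output factor, was at 6.45, 8.98, 12.7, 0.806 and 12.4 CPM in the Apoe-/- and at 425, 179, 432 and 359 CPM in the Mif-2-/- Apoe-/- libraries (log2 fold change -5.42, SE 0.59, edgeR adjusted p = 0.00089). Nr1d1 (REV-ERB alpha) was at 155, 193, 120, 257 and 204 CPM and at 527, 435, 428 and 497 CPM and was not called. Tef, another output factor, had a log2 fold change of -4.34 in the poorer and -2.28 in the richer libraries.

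Of the 554 genes higher in the richer libraries of both genotypes, the median genotype fold change was 0.97 on the log2 scale. Most richer libraries were Apoe-/-, so choosing these genes from the same libraries itself favoured a positive median. In the poorer libraries alone the median was 0.13 and in the richer ones 0.24. By edgeR 0 of the 554 were called, beside 0.13% of all tested genes. An unadjusted p under 0.05 was found for 225 (40.6%), beside 18.7% of all genes at 10 CPM or more. The 554 were chosen for a difference inside each genotype, which adds to the spread that this test measures. DESeq2 called 56 of the 553 with an adjusted p (10.1%), beside 6.32% of all such genes. These shares describe genes chosen from the same values and are no independent test. Each within-class fit has 1 library on one side, which is assumed to vary like the others.

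**Figure D5:**
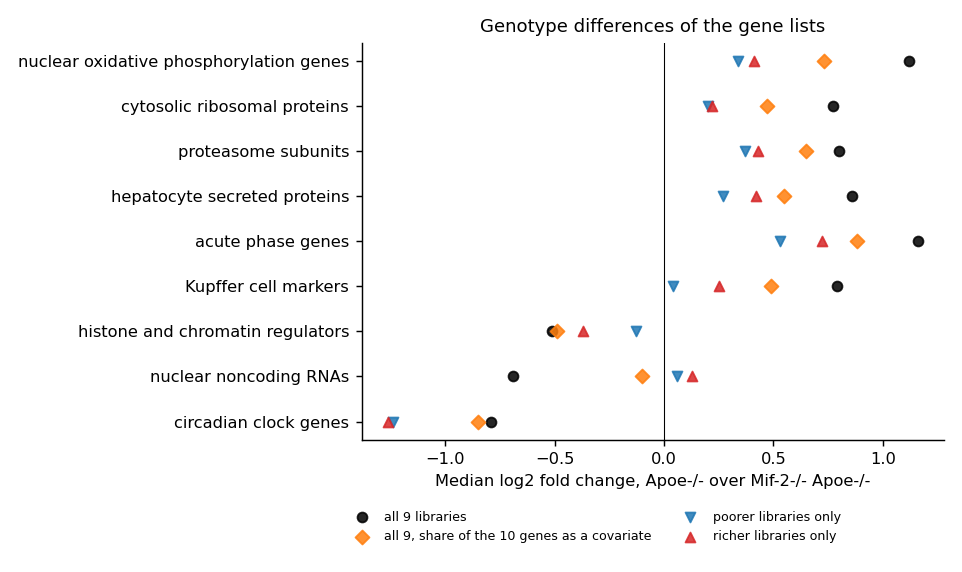
Median log2 fold change of 9 gene lists, Apoe-/- over Mif-2-/- Apoe-/- livers (x axis), over all 9 libraries, with the share of the 10 genes as a covariate, and within the poorer or the richer libraries. The median of oxidative phosphorylation genes goes from 1.12 to 0.34 and 0.41 within the classes, and that of circadian clock genes from -0.79 to -1.24 and -1.26.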

How the data were processed

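Livers of female mice were sectioned frozen, and RNA was captured on oligo-dT beads for Smart-seq2. Per the labels, the authors used FastQC, cutadapt and HISAT2 with mm10 and deposited raw exon read counts per Entrez gene, not normalized. The table held 27179 genes and 1 repeated header line, which was left out. Symbols for 25275 genes came from RefSeq (GRCm38.p6). The paper describes RNA integrity numbers for its separate whole-lysate libraries, and none were used here.

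Genes with at least 1 count in 3 libraries of either genotype were kept and the 10 most abundant left out (16860 genes). Genotypes were tested with edgeR 4.0.16 (quasi-likelihood, TMM, Benjamini-Hochberg) in R 4.3.3, with DESeq2 1.42.0 as an alternative. The test was tested on simulated data. Standard errors were obtained from the edgeR log2 fold change and its F statistic. Depth was 2318148 to 10764182 counts per library, where 3 counts equal 1.29 to 0.279 CPM. No 2 replicates agreed within counting noise (lowest chi-square per degree of freedom 23.9). Exact permutation tests used Python 3.11.15 and scipy 1.17.1. The correlation of share and total is printed without the permutation p first planned, since the share chose the classes.

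Named genes are the 10 summed genes, the 10 of each direction with the largest smaller difference (Gm and Rik names left out), the 3 most abundant measured members of each list described, and Ddt. A gene that this rule names is not reported here. The libraries' classes, lists and tests were chosen with earlier results of these data known. Alternatives were other scalings, filters, pseudocounts, fold thresholds, thinned counts, covariates, a replicate block and each library left out. The within-class fits, the unblocked fit of the block's libraries, thinning outside the 10 genes and the 12 library pairs were added after seeing the data.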

Additional observations from a re-analysis of the deposited data

Results flagged for a closer look

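In groups of 4 or 5 libraries, a highest or lowest library far from its nearest neighbour was picked out by Dixon's criterion, for which chance picks out about 1 in 20 groups. Of 134 groups of values, 22 met it, 13 of them for Apoe-/- replicate 5 and 5 for Mif-2-/- Apoe-/- replicate 2, the single libraries of their class within their genotype. Many of these genes were named for their difference at those libraries, so the number is not independent of their choice.

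For Apoe-/- replicate 5, the share flagged as low was that of Apoc3, 0.736% against 1.22% in the next Apoe-/- library. The gene levels flagged as high there were Zswim3 at 159 CPM, Ccdc116 at 49.8, Adat1 at 37.4, Otof at 33.3 and Casr at 25.6 CPM. Flagged as well were Ttc21a at 24.8, Myo15b at 18.4, Zfp251 at 11, Lctl at 10.6 and Btn1a1 at 5.42 CPM. The summed level of nuclear noncoding RNAs was 2190 CPM in that library against 1150 CPM in the next, and that of histone and chromatin regulators 2410 against 1650 CPM.

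For Mif-2-/- Apoe-/- replicate 2, Alb took 6.62% against 3.06% in the next library, Scgb1a1 reached 215 CPM, Higd1a 165 CPM, Cycs 130 CPM and Chac1 35.2 CPM. In Mif-2-/- Apoe-/- replicate 3, Casr reached 85.2 CPM and Ccdc116 74.1 CPM. Zswim3 was at 32.0 CPM in Mif-2-/- Apoe-/- replicate 4, and Dnah1 at 26.3 CPM in Apoe-/- replicate 3.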

How the results depend on the processing

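The 5 richer libraries stayed the 5 highest under all 15 other ways of summing the share. The sign of the relation of share and total was not stable around 0, with r of -0.202 without the 2 libraries farthest from the median and -0.135 with log2 totals. The genes detected at equal depth differed by -2428 to -1168 with 1 library left out, and only without Apoe-/- replicate 5 was p under 0.05 (0.0571 with equal counts outside the 10 genes). With total counts, 276 genes were higher and 695 lower. With a mean of at least 50 CPM they were 369 and 98 (r = 0.594), at 1 CPM 1037 were lower (r = 0.149), at 1.5-fold 1030 and 702, and at 4-fold 27 and 98. With 1 library left out they were 474 to 620 and 402 to 470, and r 0.180 to 0.313. Of the 12 single-library pairs, 5 moved r by more than their SD of 0.0957, to 0.0598, 0.117, 0.0532, 0.129 and 0.142. Leaving out Apoe-/- replicate 5 or Mif-2-/- Apoe-/- replicate 2 gives no value, as each is alone in its class. Genotype calls were 35 with the share as a covariate, 14 with the class as a term, 43 at an adjusted p under 0.1, 690 by DESeq2 (2859 genes without an adjusted p), 9 to 228 with 1 library left out, 31 within the richer libraries, and 0 within the poorer (edgeR, 802 at an unadjusted p under 0.05). A replicate block, possible without Apoe-/- replicate 5, gave 580 calls against 119 for the same libraries without it. The deviations of same-numbered libraries from their group means had r of 0.060, -0.021, -0.058 and -0.026. Other pairs of libraries ranged from -0.341 to 0.235. These deviations also hold the class differences, so they cannot decide whether the numbers pair the samples. Where the call changed, the cause was not tested. Depth limits single genes most in Mif-2-/- Apoe-/- replicate 2, where 3 counts equal 1.29 CPM.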

Other observations

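Lists of lipid metabolism and the cytoskeleton differed unevenly between the richer and the poorer libraries. Fatty acid oxidation and ketogenesis genes had median differences of 0.53 within Apoe-/- and 0.33 within Mif-2-/- Apoe-/- livers, with 4 of 34 counted as higher. Acaa1b, a peroxisomal thiolase and the most abundant, differed by -0.11 and -0.80, and Etfb, an electron carrier of beta-oxidation, by 1.31 and 1.39. Lipid droplet genes had medians of 0.67 and 0.45 with 0 of 14 counted. Dgat2, which makes triglycerides, differed by 0.81 and 0.35, the droplet coat gene Plin2 by 1.01 and 0.54, and the lipase gene Pnpla2 by 1.02 and -0.49. Fatty acid synthesis genes had medians of 0.30 and -0.02 with 0 of 20 counted, and cholesterol synthesis genes 0.10 and 0.27 with 1 of 17 counted in each direction. Both medians of the first list and that within Apoe-/- livers of the second changed sign with the scaling. Cytoskeleton and S100 genes had medians of 0.89 and 0.79 with 3 of 19 counted as higher, and Actb, Pfn1 and Myl6 differed by 0.57, 1.90 and 0.89 and by 1.0, 1.93 and 1.12.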
